A study of Mus musculus with 6 samples.

Results

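Metallothioneins, the transcription factor that controls them and a set of zinc transporters were followed in mouse CD4 T cells with and without the catalytic subunit AMPKα1. The set held 9 genes of the 23282 listed in the files: the metallothioneins Mt1, Mt2 and Mt3, the regulator Mtf1, the transporters Slc30a1 and Slc30a5, and the transporters Slc39a1, Slc39a6 and Slc39a10. Of these, 8 passed the filter on low values that left 11279 genes. The genes were taken by symbol and were selected on their log2 differences between AMPK KO and WT in these same samples, so those differences are given as a description, with no p.

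WT cells came from Prkaa1 fl/fl mice without Cre, and AMPK KO cells from Prkaa1 fl/fl mice that also carried CD4Cre, so both groups bore the floxed alleles. CD4Cre is active in every cell that has passed through a CD4-expressing stage, which includes the CD8 lineage. The mice were of the C57BL/6 strain, and the study's methods state females 6 to 8 weeks old unless specified otherwise. CD4 T cells were taken from the spleen and lymph nodes, rested for 1 h and stimulated with anti-CD3 and anti-CD28 antibodies, at 2 µg/mL each by the methods. The labels give 24 h of stimulation and the methods 6 h. There were 3 samples per group. The study calls them independent biological samples, and the labels do not say whether each came from a separate mouse, so the p values below measure the spread between these samples only.

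Metallothioneins are small cysteine-rich proteins that bind zinc and copper. Free zinc in the cytosol activates the zinc-finger factor MTF-1, which then binds metal response elements and switches on Mt1, Mt2 and the zinc exporter gene Slc30a1. Transporters of the Slc30 (ZnT) family move zinc out of the cytosol, across the plasma membrane or into vesicles, and those of the Slc39 (ZIP) family move it into the cytosol. Glucocorticoids, STAT3 and oxidative stress also act on Mt1 and Mt2. In T cells, zinc that enters after engagement of the antigen receptor strengthens signalling, and the importer encoded by Slc39a6 has been tied to that influx.

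The start regions of the 3 genes that MTF-1 is best known to activate are shown, since metal response elements lie in such regions. Each is the RefSeq window on GRCm38.p6 that runs from 250 bases before to 50 bases after the annotated start. Capitals mark the metal response element core, searched as TGCACNC or TGCGCNC on both strands. The Mt2 window (chr8:94172368-94172667, plus strand) held 4 matches, the Mt1 window (chr8:94178839-94179138, plus strand) 3, and the Slc30a1 window (chr1:191906531-191906830, plus strand) 2, both on the reverse strand.
Mt2: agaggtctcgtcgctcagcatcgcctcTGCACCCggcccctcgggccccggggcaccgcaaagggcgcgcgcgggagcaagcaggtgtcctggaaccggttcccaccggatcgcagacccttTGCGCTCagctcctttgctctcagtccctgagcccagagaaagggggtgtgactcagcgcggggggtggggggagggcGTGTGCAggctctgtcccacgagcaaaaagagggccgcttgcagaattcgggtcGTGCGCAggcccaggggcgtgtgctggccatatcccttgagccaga
Mt1: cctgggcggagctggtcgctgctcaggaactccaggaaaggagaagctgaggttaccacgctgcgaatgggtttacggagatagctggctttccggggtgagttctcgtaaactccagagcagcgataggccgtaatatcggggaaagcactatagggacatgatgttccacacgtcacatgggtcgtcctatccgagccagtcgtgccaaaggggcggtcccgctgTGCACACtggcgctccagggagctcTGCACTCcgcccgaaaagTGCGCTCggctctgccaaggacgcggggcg
Slc30a1: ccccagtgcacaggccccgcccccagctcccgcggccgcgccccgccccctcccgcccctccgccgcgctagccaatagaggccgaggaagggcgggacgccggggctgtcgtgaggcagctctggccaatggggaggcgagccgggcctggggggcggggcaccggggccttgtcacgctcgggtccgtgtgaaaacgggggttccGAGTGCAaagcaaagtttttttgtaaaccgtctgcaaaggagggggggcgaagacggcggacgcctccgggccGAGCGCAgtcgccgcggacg

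Across all 32851 such windows, 0.517% held at least 4 matches, 1.97% at least 3, 7.11% at least 2 and 25.7% at least 1. The windows of Mt3 and Slc30a5 held 1 match each, and those of Mtf1 and Slc39a1 and both windows of Slc39a10 held 0. No window was matched for Slc39a6. The Mt1 matches were TGCACAC at position -23, TGCACTC at position 3 and TGCGCTC at position 21, counted from the annotated start, itself position 0. Annotations of the Mt1 start differ, with the RefSeq gene beginning at chr8:94178883 and the GENCODE gene at chr8:94179082. The positions and the bases covered therefore depend on the start used. A match describes the letters of the window and is not a measured binding site.

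Reads recovered from the deposited values numbered 9575096 to 10168121 per WT library and 10515155 to 11185360 per AMPK KO library. The ribosomal RNA gene Rn45s took 22.4% ± 2.21 (SD, n = 3) of the WT reads and 9.89% ± 1.24 (SD, n = 3) of the AMPK KO reads. Prkaa1, the targeted gene, had a log2 fold change of -0.43 (standard error 0.25, limma adjusted p = 0.357), with 221 to 369 reads per WT library and 188 to 291 per AMPK KO library. Where the reads lie relative to the deleted exons is not known here, so this gene does not check the labels. The AMPK KO libraries held 1998 to 2876 reads of Xist, which is expressed from the inactive X of females, against 8 to 32 in WT, and Ddx3y, which is on the Y chromosome, had 1296 to 1840 reads in AMPK KO against 3158 to 3462 in WT. Sex-linked transcripts thus differed with genotype, and genotype and this difference cannot be told apart. Y-linked reads in every library of both groups are at odds with the females that the methods state. Every AMPK KO library held many reads of both genes, and whether libraries were pools of mice was not tested. Deviations from the group means also separated WT samples 1 and 3 with AMPK KO sample 2 from the other samples, along a first component that took 42.5% of their variance.

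Mt2 showed the largest difference of the set. Its level was 2.50, 2.11 and 2.94 in WT samples 1 to 3, and 5.38, 5.55 and 5.18 in AMPK KO samples 1 to 3, all on the deposited scale of log2 (normalised value + 1). The groups lay far apart, with every AMPK KO library above every WT library. These levels rest on 43, 33 and 59 reads in WT and 481, 492 and 420 in AMPK KO. With the logarithm undone, which gives counts scaled to library size (CPM), the WT mean was 4.88 ± 1.69 (SD, n = 3) and the AMPK KO mean 40.6 ± 5.25 (SD, n = 3), a ratio of 8.32, and the lowest AMPK KO library stood 5.30-fold above the highest WT library. The log2 fold change was 2.85 (standard error 0.29). Because 1 is added before the logarithm, it understates the linear ratio of this low gene.

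Mt1 differed in the same direction. Its level was 4.585, 3.917 and 3.853 in WT and 6.372, 6.997 and 6.266 in AMPK KO, again with no overlap between the groups. AMPK KO sample 2 was the highest library and WT sample 1 the highest of its group. The reads behind these levels numbered 212, 141 and 119 in WT and 970, 1361 and 903 in AMPK KO. Mean CPM came to 16.9 ± 5.33 (SD, n = 3) for WT and 94.8 ± 27.8 (SD, n = 3) for AMPK KO, a ratio of 5.63, and the lowest AMPK KO library was 3.30-fold above the highest WT library. The log2 fold change was 2.43 (standard error 0.25).

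Mt3, the form best known from brain, had no read in any WT library or in AMPK KO samples 2 and 3, and 1 read in AMPK KO sample 1. It did not pass the filter. A count of 0 allows up to 3 reads per library, which corresponds to a log2 level of at most 0.42.

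Mt1 and Mt2 did not keep the same proportion in every library. The ratio of Mt1 to Mt2 CPM was 4.93, 4.27 and 2.02 in WT and 2.02, 2.77 and 2.15 in AMPK KO. Their means were 3.74 ± 1.53 (SD, n = 3) and 2.31 ± 0.40 (SD, n = 3), and the ranges of the groups met at WT sample 3. Over the 6 samples, the log2 levels of Mt1 and Mt2 had a Pearson correlation of 0.96, a value that the difference between the groups largely sets. Over deviations from the group means it was 0.19. These points share their libraries, so both values are descriptions only.

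**Figure D1:**
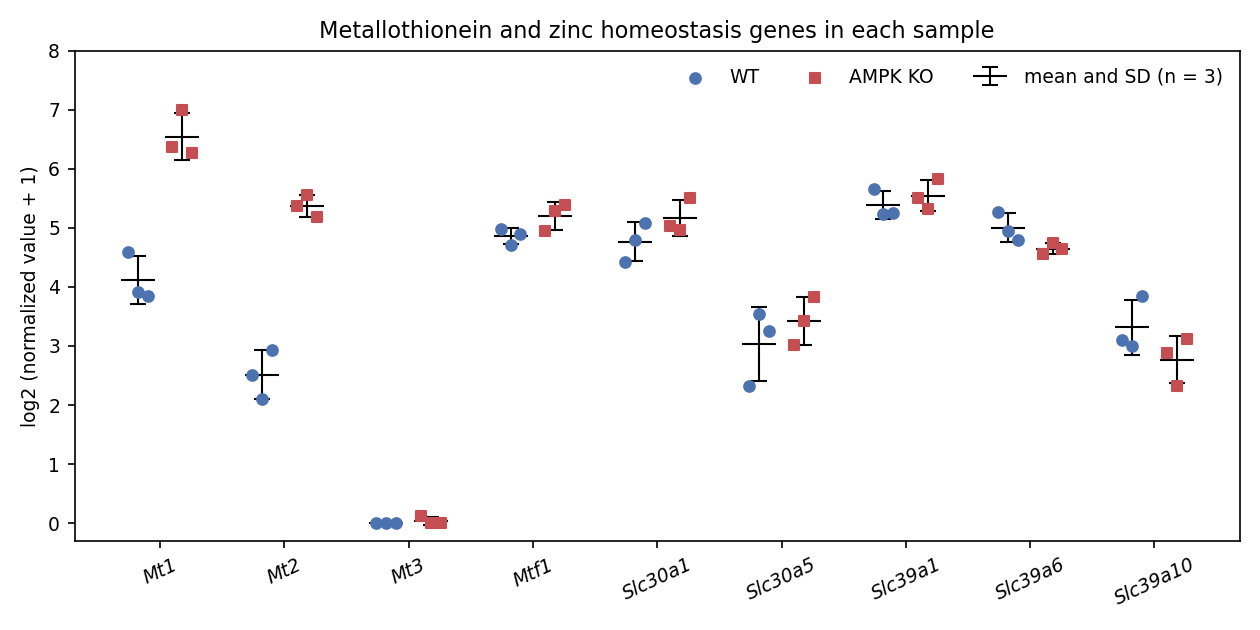
Log2 (normalised value + 1) of each of the 9 genes in the 3 WT samples (circles) and the 3 AMPK KO samples (squares), with the mean and SD of each group. Mt1 and Mt2 separate the groups widely, Mt3 lies at the floor, and only Slc39a6 among the other genes has groups that do not overlap, with AMPK KO below WT.

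A 3′ kit reads the ends of transcripts, and these ends were compared between the metallothioneins. Mt1 (ENSMUSG00000031765, chr8:94179082-94180327, plus strand) and Mt2 (ENSMUSG00000031762, chr8:94172664-94173568, plus strand) lie side by side with Mt3 (chr8:94152607-94154146, plus strand) in the GENCODE annotation of GRCm38. The longest run of identical bases shared by the last 300 bases of Mt1 and Mt2 transcripts was 17. None of the 327 words of 50 bases in the last 300 bases of Mt1 occurred in a transcript of another gene. For Mt2, 47 of 255 words also occurred in Gm45774, a gene on the opposite strand that the files do not list. Whether reads were counted by strand is not given in the sources used here.

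Genes around the cluster held no call. Of the 10 listed genes on each side, 12 passed the filter and 0 passed the limma threshold of adjusted p 0.05, against 5.65% of all tested genes, limma voom on the recovered reads also gave 0, and 1 had an unadjusted p below 0.05. Their median log2 fold change was 0.06, beside 0.02 over all tested genes. Values ran from -0.70 for 9330175E14Rik to 0.88 for Cpne2, and the nearest tested neighbours were Bbs2 (-0.23), which encodes a subunit of the BBSome of cilia, and Nup93 (0.15), which encodes a nuclear pore protein.

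**Figure D2:**
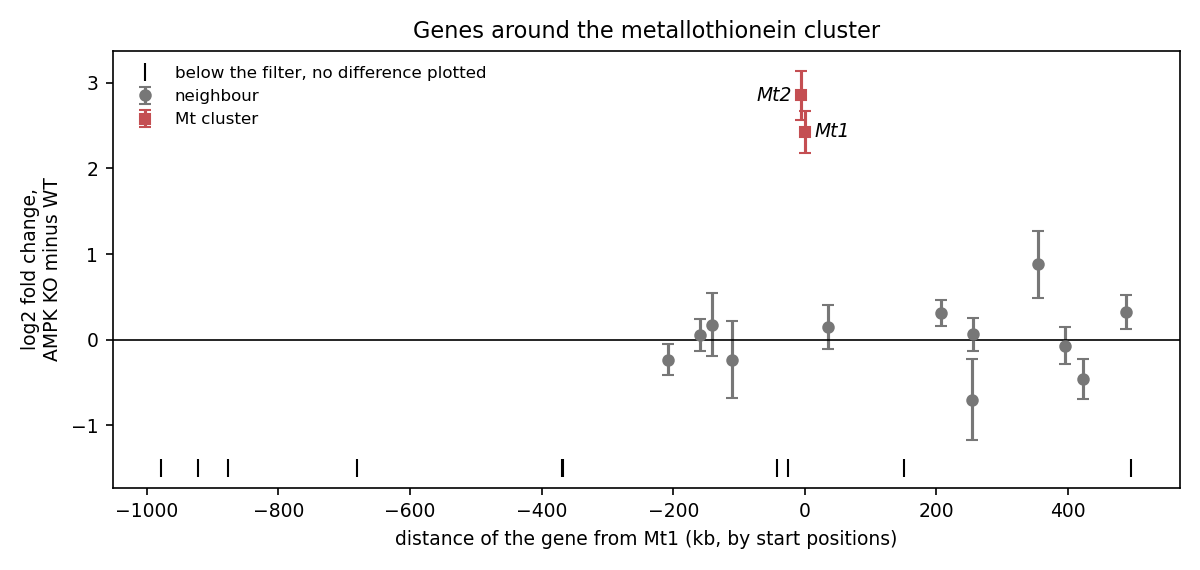
Log2 fold change (AMPK KO minus WT) with its standard error for the tested genes around the metallothionein cluster, against distance from Mt1 in kilobases, with ticks for genes below the filter. Mt2 (2.85) and Mt1 (2.43) stand above all 12 tested neighbours, whose values lie between -0.70 and 0.88.

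Mtf1, which encodes the zinc sensor itself, was close between genotypes. Its level was 4.98, 4.71 and 4.89 in WT and 4.94, 5.28 and 5.39 in AMPK KO, and the groups overlapped through AMPK KO sample 1. The log2 fold change was 0.35 (standard error 0.21) on 251 to 488 reads per library. Mtf1 (ENSMUSG00000028890, chr4:124802104-124849800, plus strand) overlaps 1110065P20Rik on the opposite strand, and 502 of the 1004 words of 50 bases in its last 300 bases are shared with that gene, so its value is uncertain.

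Both exporters of the set overlapped between genotypes. Slc30a1, the plasma membrane exporter that MTF-1 induces together with Mt1 and Mt2, had levels of 4.42, 4.80 and 5.08 in WT and 5.03, 4.97 and 5.51 in AMPK KO. WT sample 3 exceeded AMPK KO samples 1 and 2, so the groups overlapped. The log2 fold change was 0.40 (standard error 0.24), far less than that of either metallothionein, and leaving out either WT sample 1 or AMPK KO sample 3 gave 0.23. Slc30a5, which loads zinc into the secretory pathway, had levels of 2.33, 3.54 and 3.25 in WT and 3.02, 3.42 and 3.84 in AMPK KO. Its log2 fold change was 0.39 (standard error 0.38) on 37 to 158 reads, and it became 0.03 when WT sample 1 was left out, 0.18 when AMPK KO sample 3 was and 0.64 when WT sample 2 was. Slc30a1 (ENSMUSG00000037434) lies at chr1:191906767-191913247 on the plus strand and Slc30a5 (ENSMUSG00000021629) at chr13:100802648-100833427 on the minus strand.

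The importers differed in both directions and by less than 1 on the log2 scale. Slc39a1, a widely expressed importer, had levels of 5.65, 5.24 and 5.26 in WT and 5.50, 5.31 and 5.82 in AMPK KO, which overlapped, and differed by 0.16 on the log2 scale (standard error 0.20). Leaving out AMPK KO sample 3 gave 0.02, leaving out WT sample 1 gave 0.29, and scaling to reads outside Rn45s gave 0.09. Slc39a6 had levels of 5.28, 4.94 and 4.80 in WT and 4.56, 4.74 and 4.64 in AMPK KO, with every AMPK KO library below every WT library but by as little as 0.06 between the nearest pair. Its log2 fold change was -0.36 (standard error 0.22), or -0.22 without WT sample 1. Slc39a10, which MTF-1 is known to repress when zinc is plentiful, had levels of 3.10, 3.0 and 3.85 in WT and 2.87, 2.32 and 3.11 in AMPK KO. WT sample 3 was high and AMPK KO sample 2 low, the groups overlapped, and the log2 fold change was -0.55 (standard error 0.36) on 43 to 119 reads. Leaving out WT sample 3 gave -0.28 and leaving out AMPK KO sample 2 gave -0.33. Slc39a1 (ENSMUSG00000052310) lies at chr3:90248172-90253612 on the plus strand and Slc39a10 (ENSMUSG00000025986) at chr1:46807544-46892852 on the minus strand. Slc39a6 (ENSMUSG00000024270) overlaps Elp2 on the opposite strand, which had a log2 fold change of -0.29.

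Of the 8 genes that passed the filter, 2 were past the limma threshold upward (Mt1 and Mt2), where 2.54% of all tested genes were, and 0 downward, where 3.1% were. Groups did not overlap for 3 of the 8, against 25.6% of all tested genes. Since the contrast was known when the genes were chosen, these counts are a description. Along the component that separated the libraries, Mt1 differed by 2.78 between AMPK KO sample 2 and WT samples 1 and 3, and by 2.40 between the other samples. For Mt2 the corresponding values were 2.83 and 3.18. Slc39a6 kept its sign, at -0.30 and -0.34, whereas Slc30a5 (0.63 and -0.11) and Slc39a1 (-0.14 and 0.42) did not, and Slc39a10 differed by -1.16 in the first set and -0.01 in the second.

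The remaining metallothionein and zinc transporter genes were next examined for the same contrast. Of 21 genes (Mt4, the other Slc30 and Slc39 genes and Tmem163), 13 passed the filter. None of them passed the limma threshold, by limma on the deposited values or by limma voom on recovered reads, where 5.65% of all tested genes passed by limma, and 1 had an unadjusted p below 0.05. At that share less than 1 of 13 genes would pass. Means were higher in AMPK KO for 6, beside 51.2% of all tested genes, and lower for 7, and the median log2 fold change was -0.01. That 1 gene was Slc30a7, which carries zinc into the early secretory pathway. Its levels were 7.40, 7.44 and 7.28 in WT and 7.10, 7.0 and 7.06 in AMPK KO, a difference of -0.32 on the log2 scale (standard error 0.14, limma adjusted p = 0.201). Slc39a4, the intestinal zinc importer, had the highest value of the tested genes, 0.64 (standard error 0.36, limma adjusted p = 0.329), with 41 to 139 reads. Counting the described genes too, 4 of the 6 tested Slc30 genes and 4 of the 11 tested Slc39 genes had higher means in AMPK KO.

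Slc30a3 fell below the filter and yet separated the groups. It encodes ZnT3, which fills synaptic vesicles with zinc in neurons, and it had 0 reads in all 3 WT libraries and 19, 17 and 14 reads in the AMPK KO libraries. Mean CPM in AMPK KO was 1.45 ± 0.24 (SD, n = 3), at least 4.52-fold higher than WT taken at 3 reads per library. The gene was singled out after its values were seen. Mt4, the metallothionein of stratified epithelia, had 0 reads in every library.

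**Figure D3:**
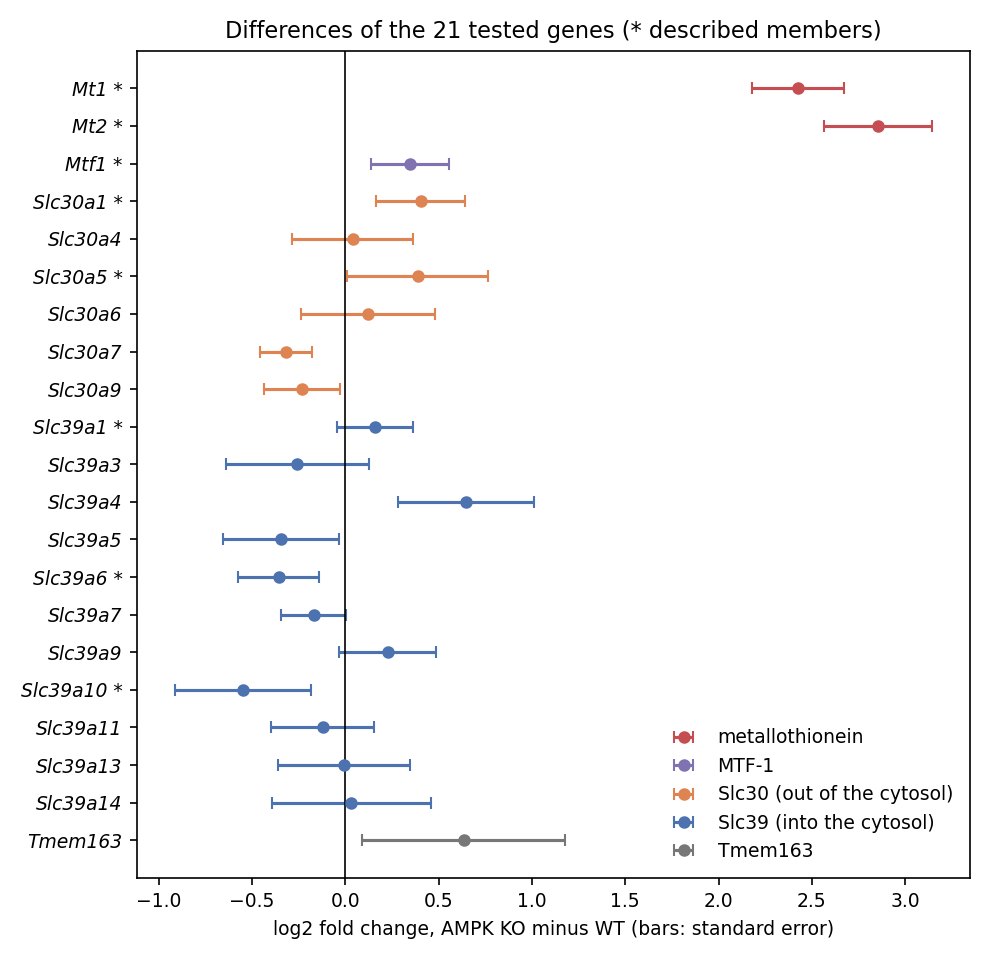
Log2 fold change (AMPK KO minus WT, horizontal axis) with its standard error for the 8 described genes (asterisks) and the 13 other zinc genes that passed the filter, coloured by role. Mt1 and Mt2 exceed 2, and every transporter lies between -0.55 and 0.64.

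Other genes under MTF-1 were listed to see how far the pattern of Mt1 and Mt2 extended. Of 9, 7 passed the filter, and all 7 had higher means in AMPK KO, as did 51.2% of all tested genes. Of the 7, 1 rose past the limma threshold, where 2.54% of all tested genes did. This was Slc40a1, which encodes the iron exporter ferroportin and is also strongly expressed by macrophages. Its levels were 4.57, 4.63 and 4.19 in WT and 5.94, 5.90 and 5.53 in AMPK KO, a rise of 1.33 on the log2 scale (standard error 0.21, limma adjusted p = 0.0026). Cebpa, a myeloid transcription factor, had 0.95 with groups that did not overlap (limma adjusted p = 0.152). Ndrg1 (0.27), Csrp1 (0.04) and Gclc (0.01), the catalytic subunit of glutathione synthesis, lay close to 0, and the median of the list was 0.08. The copper list, included because metallothioneins also bind copper, had 0 of 11 tested genes past the limma threshold, beside 5.65% of all tested genes, 0 with limma voom, and 2 at an unadjusted p below 0.05. Without AMPK KO sample 2 the copper count was 2, and 1246 of all 11279 tested genes passed, against 637 with every sample.

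Few glucocorticoid-responsive and STAT3-responsive genes, listed because these regulators also act on Mt1 and Mt2, passed the limma threshold. Among the glucocorticoid-responsive genes, 1 of 9 rose past the limma threshold, where 2.54% of all tested genes did. This was Dusp1, a phosphatase of MAP kinases that other signals also induce, at 0.84 (standard error 0.20, limma adjusted p = 0.023). Means were higher in AMPK KO for 8 of the 9, beside 51.2% of all tested genes. Of the 9, 4 had an unadjusted p below 0.05, a cut-off at which the share of all tested genes was not counted. Groups did not overlap for 5 of the 9, against 25.6% of all tested genes. Zbtb16 (0.62), Sgk1 (0.58) and Ddit4 (0.53, limma adjusted p = 0.057) had AMPK KO wholly above WT but did not pass. Per1 (-0.44), which was among the 4, had AMPK KO wholly below WT and did not pass, nor did Fkbp5 (0.28) and Tsc22d3 (0.10). Leaving out WT sample 1, WT sample 3 or AMPK KO sample 1 took the glucocorticoid count to 0, as did no filter or the replicate block, and leaving out AMPK KO sample 2 took it to 3. The count over all genes, 637 with every sample, was 127, 140, 172, 308 and 102 in those fits in the order named. It was 1246 without AMPK KO sample 2. Among the STAT3-responsive genes, 0 of 8 passed, beside 5.65% of all tested genes, 0 with limma voom and 2 at an unadjusted p below 0.05. These were Socs3, the feedback inhibitor of STAT3 signalling, at 1.76 (limma adjusted p = 0.063), and Il6ra, the interleukin-6 receptor chain, at -0.47 (limma adjusted p = 0.128) with AMPK KO wholly below WT. The STAT3 count became 1 when WT sample 2 was left out and 2 when AMPK KO sample 2 was. The counts over all genes were then 728 and 1246.

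Oxidative and heat stress genes held more calls. Of the NRF2 targets, 4 of 9 tested genes rose past the limma threshold, where 2.54% of all tested genes did: Slc7a11, the cystine importer, by 1.95; Srxn1, sulfiredoxin, by 1.66; Hmox1, haem oxygenase, by 1.05; and Prdx1, a peroxiredoxin, by 0.63, with limma adjusted p values of 0.016, 0.013, 0.035 and 0.025. Nqo1, a standard NRF2 target, was below the filter at 0 to 9 reads, and Gclm had -0.71 (limma adjusted p = 0.337). The NRF2 count became 2 when WT sample 1 was left out, 0 when WT sample 3 was and 1 when AMPK KO sample 1 was. It was 0 with no filter and 0 with replicate number as a block. Of the heat shock genes, 4 of 11 rose, against the same 2.54%: Hspa8 by 1.59 (limma adjusted p = 2.0e-05), the small heat shock protein gene Hspb1 by 0.83, Dnajb1 by 0.76 and Hsp90aa1 by 0.66. The inducible Hspa1a (0.31) and Hspa1b (0.85) did not pass. Leaving out WT sample 1 gave 2 heat shock genes, WT sample 3 gave 1, AMPK KO sample 1 gave 1 and AMPK KO sample 2 gave 7. There were 2 with no filter and 1 with the block.

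Some markers of other cell types differed between genotypes in the same libraries. All 16 tested macrophage markers of 17 had higher means in AMPK KO, as did 51.2% of all tested genes. Of the 16, 7 rose past the limma threshold, against 2.54% of all tested genes. The count was 4 without WT sample 1 and 4 with the replicate block, where 127 and 102 of all genes passed instead of 637. C1qa rose by 1.85, C1qc by 1.51 and Csf1r by 0.97. The CPM of the 17 genes summed to 442 to 502 in WT and 796 to 1445 in AMPK KO, a ratio of mean sums of 2.29, and none of the 17 was at 0 in every library. The plasma cell transcript Jchain stood at 56.1 to 63.4 CPM in WT and 327 to 392 in AMPK KO, within a B cell and plasma cell list that summed to 299 to 315 and 564 to 688. That list was uneven, with a median log2 fold change of 0.08 over 8 tested genes. The plasma cell genes Mzb1 and Sdc1 had 0.75 and 0.83 (limma adjusted p = 0.057 and 0.302), and the B cell gene Ms4a1 -0.46 (limma adjusted p = 0.215). The 9 genes other than Jchain, separated after the values were seen, summed to 236 to 259 in WT and 233 to 296 in AMPK KO. T cell markers summed to 3325 to 3577 CPM in WT and 2644 to 3327 in AMPK KO. The corresponding sums were 231 to 305 and 321 to 376 CPM for CD8 T cell markers, 796 to 908 and 518 to 760 for neutrophil markers, 57.1 to 79.3 and 88.5 to 111 for NK cell markers, and 3992 to 4600 and 2891 to 5575 for erythroid markers. No tested CD8 T cell, NK cell or erythroid marker passed the limma threshold. Of 9 tested neutrophil markers, 2 fell past it, where 3.1% of all tested genes did, and the list median was -0.73. These were Ltf (-1.54, limma adjusted p = 0.028) and Ngp (-1.53, limma adjusted p = 0.0019). Of the 13 T cell markers, 10 had lower means in AMPK KO, and the median difference was -0.31 on the log2 scale. Cd3e, Cd3g and Cd28 fell past the threshold, as did 3.1% of all tested genes, and Thy1 rose, as did 2.54%. The lowest log2 level of any of the 13 T cell markers in any library was 5.69. In such bulk samples, fewer cells of a type and less RNA per cell cannot be told apart.

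Mt1 and Mt2 were set beside the macrophage markers library by library. The summed markers, Mt1 and Mt2 were each highest in AMPK KO sample 2. The correlation of log2 Mt1 with the log2 summed markers was 0.97 over 6 samples and 0.83 over deviations from the group means, and for Mt2 it was 0.92 and 0.36. The other lists were compared in the same way. With the summed B cell and plasma cell markers, most of whose difference between groups is Jchain, the values were 0.99 and 0.79 for Mt1 and 0.99 and 0.52 for Mt2. Over the 6 samples, Jchain alone had 0.97 with Mt1 and 0.98 with Mt2, and the other 9 markers summed had 0.33 and 0.22. Over the 6 samples, the T cell, neutrophil and erythroid sums had -0.59, -0.72 and -0.01 with Mt1, and -0.70, -0.76 and -0.16 with Mt2. For NK cell and CD8 T cell sums the values were 0.71 and 0.67 with Mt1, and 0.76 and 0.78 with Mt2. Over deviations from the group means, Mt1 had 0.85 with T cell, 0.77 with erythroid and 0.46 with neutrophil markers. It had -0.67 with NK cell and -0.49 with CD8 T cell markers. Mt2 had 0.41 with T cell, 0.43 with neutrophil, 0.26 with erythroid, 0.08 with CD8 T cell and -0.69 with NK cell markers. For both genes, some of these deviation values exceeded that with macrophage markers. With AMPK KO sample 2 left out, the log2 fold change was 2.20 for Mt1 and 2.77 for Mt2. The largest difference of any tested macrophage marker was 1.87, for Cd14, and that of any tested B cell or plasma cell marker was 2.60, for Jchain, the joining chain of secreted antibodies, which lies between Mt1 and Mt2. By the methods, cells were isolated with microbeads or a cell sorter, a step meant to remove such cells. The study gives purity by flow cytometry after bead sorting as a lower bound short of complete, so some other cells are allowed. The part of such cells in the metallothionein values was not tested.

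**Figure D4:**
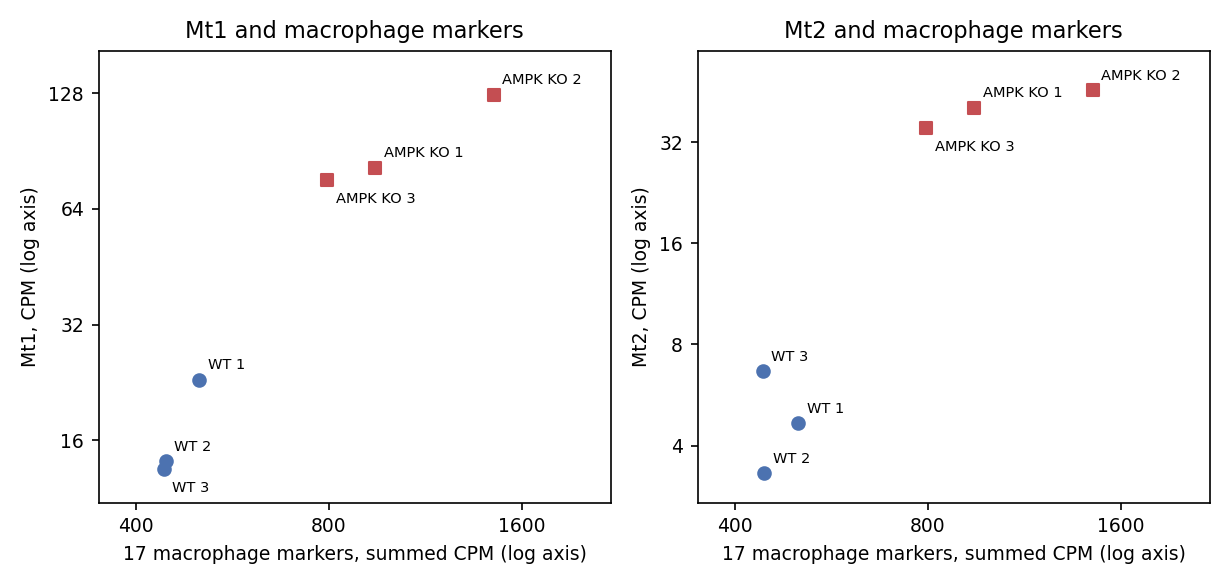
CPM of Mt1 (left) and Mt2 (right) against the summed CPM of 17 macrophage markers in each sample, both axes logarithmic, WT as circles and AMPK KO as squares. AMPK KO sample 2 has the highest marker sum (1445 CPM) and the highest Mt1 and Mt2, and the WT samples order differently for Mt1 and Mt2.

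The genes whose levels tracked Mt1 most closely over the 6 samples, among the 5641 genes with a mean log2 value of at least 4.255, were Klrc1, Litaf, Cd68, Nop56 and Fscn1, with correlations of 0.99 each. For Mt2 they were Ppa1, Cd86, AW112010, Mknk2 and Lilrb4a, with correlations of 0.98 to 0.99. The 2 lists share no gene. Over deviations from the group means, Aif1, Tbcd, Cog8, Ifnar2 and Eif3g were most like Mt1, and Nacc1, Aven, Nol6, Cep120 and Hs6st1 most like Mt2, each at 0.99 or above. With 6 points per gene and 5641 genes to choose from, these names are a description.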

How the data were processed

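CD4 T cells of 2 genotypes, 3 samples each, were profiled from 500 ng of total RNA with a Lexogen QuantSeq 3′ kit, whose reads lie near transcript ends and do not scale with length, so levels were not compared between genes, except that the Mt1 to Mt2 ratio was followed across libraries. The authors deposited one log2 value per gene and sample, log2 (TMM and CPM normalised value + 1). The submitters' processing notes name Bowtie2, bedtools and mm10. Their versions and the counting settings are not given in the sources used here. Low values were whole multiples of 1 read (100% within 0.1 of a whole number, up to 100 reads), so reads per gene were recovered. Intervals of single read counts are not given, because reads without molecular identifiers are not independent molecules. Of the symbols, 35 occurred on more than 1 line (79 lines).

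Genes with a mean log2 value of at least 1 were fitted with limma 3.58.1 (R 4.3.3; lmFit, eBayes with trend) on genotype alone, with two-sided p values adjusted by Benjamini and Hochberg over all 11279 genes at a threshold of 0.05. The fit was tested on simulated data. Fold changes are AMPK KO minus WT. Counts at an unadjusted p below 0.05 are descriptions, since the share of all tested genes at that cut-off was not counted. Members and gene lists were chosen with earlier results of these data known. Named genes were all members and, from each other list, those past the threshold, at most 4, with the genes that a count needs; other genes of a list were named after their values were seen. The 5 genes most like Mt1, and likewise Mt2, were taken from genes at or above the median level. Promoter windows came from RefSeq (GRCm38.p6) and gene positions from GENCODE M21. Alternatives covered normalisation, filter, pseudocount, voom, robust estimation, replicate block, division of the libraries and leaving out each sample.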

Additional observations from a re-analysis of the deposited data

How the results depend on the processing

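The direction of all 8 fitted genes held in all 16 alternatives. The log2 fold change of Mt1 ranged from 2.18 to 2.66 and that of Mt2 from 2.21 to 3.11, and with 1 sample left out from 2.20 to 2.66 and from 2.65 to 3.07. The lowest Mt2 value, 2.21, came with a pseudocount of 5, which by construction shrinks low genes. Mtf1 ranged from 0.25 to 0.48, Slc30a1 from 0.23 to 0.56, Slc30a5 from 0.03 to 0.64, Slc39a1 from 0.02 to 0.29, Slc39a6 from -0.46 to -0.22 and Slc39a10 from -0.72 to -0.28.

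Counts past the threshold moved more, and the cause was not tested. Over all genes the count was 637, of which 45.1% were higher in AMPK KO, and 722 with 32.5% higher after scaling to reads outside Rn45s. It was 308 with no filter, 102 with the replicate block, 1428 with a term for the 2 sets of libraries that stood apart, and 127 to 1246 with 1 sample left out. The replicate numbers did not pair the samples (correlations of deviations -0.08, -0.32 and -0.16). In the paired fit with the replicate block, the count was 0 for glucocorticoid-responsive genes, 0 for NRF2 targets, 1 for heat shock genes and 4 for macrophage markers. With no filter it was 1 for the other zinc genes (Slc30a3), 0 for glucocorticoid-responsive genes, 0 for NRF2 targets and 2 for heat shock genes. Glucocorticoid-responsive genes gave 2 under quantile normalisation and 2 with a mean log2 value of at least 3. The term for the 2 sets of libraries gave 4 for glucocorticoid-responsive, 1 for copper and 1 for STAT3-responsive genes. With 1 sample left out, counts ranged from 0 to 3 for glucocorticoid-responsive, 0 to 4 for NRF2, 1 to 7 for heat shock, 0 to 2 for copper, 0 to 2 for STAT3-responsive genes and 4 to 8 for macrophage markers. Depth limits Mt2 in WT (33 to 59 reads), Slc30a5 and Slc39a10, and Mt3 was not detectable beyond 1 read.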
